A study of Homo sapiens with 6 samples.

Results

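A set of 10 long noncoding RNAs tied to low oxygen or to cell growth were followed in cells labelled HCT116, a human colorectal cancer line. They were chosen by name, and 9 of the 10 had a row among the 30676 genes of the table: H19, NEAT1, GAS5, SNHG1, MALAT1, PVT1, MIR210HG, UCA1 and MEG3. CCAT1 had no row of its own and was not analysed here. All cells were labelled wild type and were held at 1% oxygen for 24 hours. One group of 3 libraries received GIA, a genistein isoflavonoid alkaloid, at 10 µM, and the other group of 3 received the vehicle DMSO at 0.1%. The labels give no DMSO content for the GIA group, and no normoxic group was used here, so the response to low oxygen itself was not measured. Nor do they state that a group's libraries are independent cultures; the spread behind each p-value is that between these samples and may be technical.

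Library totals were 55725249 to 63542466 estimated counts with DMSO and 64804849 to 67835059 with GIA. Levels are given as FPKM, a fragment count corrected for the gene's length and for the library's size. The markers of the labelled cell type were present only in part. The keratins KRT8 (134 to 151 FPKM) and KRT18 (219 to 274 FPKM) were abundant. The epithelial genes KRT19 (26.2 to 29.9 FPKM) and CLDN7 (10.2 to 14.9 FPKM) were expressed, and CLDN4 was low (0.818 to 1.02 FPKM). The epithelial adhesion genes EPCAM (0.119 to 0.335 FPKM) and CDH1 (0.0165 to 0.0490 FPKM) and the brush-border gene VIL1 (at most 0.0122 FPKM) were at or near 0 in every library, and the intestinal factor CDX2 had no matching row. Of 6 fibroblast markers named, 4 had a row. DCN had 11.2 to 16.0 FPKM, PDGFRB 3.77 to 5.38, COL1A1 2.23 to 3.17 and COL3A1 at most 0.00766. The libraries are therefore named by their labels. GIA library 2 stood apart from the others: it held the highest value of the 6 libraries for 29.6% of the 13721 tested genes and the lowest for 23.9%, where the other libraries held the highest for 10.6% to 16.0%.

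Long noncoding RNAs are transcripts without a long open reading frame that act as RNA, or whose making matters more than the product. NEAT1 is the scaffold of paraspeckles, nuclear bodies that grow under stress and low oxygen, and MALAT1 collects in nuclear speckles next to splicing factors. GAS5 and SNHG1 are spliced hosts whose introns release small nucleolar RNAs, and their spliced products are broken down by nonsense-mediated decay. MIR210HG is the host of miR-210, a microRNA induced by the hypoxia-inducible factor HIF. H19 and MEG3 are imprinted, and PVT1 and CCAT1 lie near MYC.

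No member passed the test between GIA and DMSO, and most lay within a narrow band of fold change. A mean of at least 0.5 FPKM was reached by 7 members. By the quasi-likelihood test of edgeR none of the 7 passed, 0 upwards and 0 downwards, with a Benjamini-Hochberg adjusted p of 0.875 to 0.992. Over all 13721 tested genes 0.0% were called higher and 0.0% lower, and 630 (4.59%) had an unadjusted p under 0.05, against 0 of the 7 members. DESeq2 also called 0 members, although NEAT1, as 1 of the 7, had an unadjusted p under 0.05. By limma on log2 FPKM 0 of these 7 were called and 0 reached that unadjusted level. The log2 fold change was positive for 5 of the 7 and negative for 2, where 50.2% of all tested genes were positive. Its median was 0.05 over the 7 and 0.00038 over all tested genes. A change in RNA per cell and a change in the share of cells that hold the RNA cannot be told apart in such bulk samples.

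**Figure D1:**
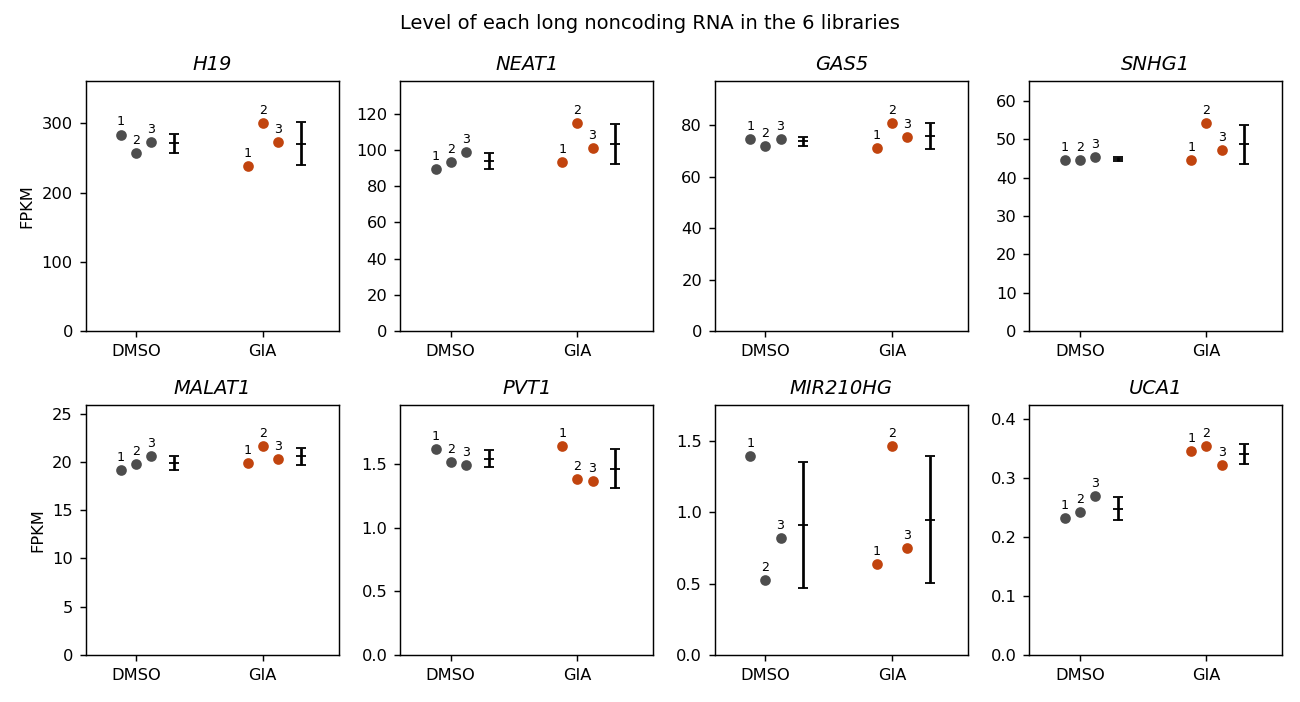
FPKM of 8 long noncoding RNAs (1 panel each, each with its own axis from 0) in the DMSO libraries (grey points) and GIA libraries (orange points). Small digits are the library numbers, and the black bars are the mean and SD of 3 libraries. The groups overlap for every gene shown except UCA1, where the GIA libraries lie at 0.321 to 0.353 and the DMSO libraries at 0.231 to 0.269.

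The members covered a wide range of levels. By mean FPKM over the 6 libraries the order was H19 (271), NEAT1 (98.5), GAS5 (74.8), SNHG1 (46.8), MALAT1 (20.2), PVT1 (1.5), MIR210HG (0.928), UCA1 (0.294) and MEG3 (0.000672). Neighbours in this order were separate in all 6 libraries except PVT1 and MIR210HG, whose ranges overlapped. H19 lay above 99.7% of the rows of the table and UCA1 above 50.4%. The spread over the 6 libraries was widest for MIR210HG and UCA1, the lowest members apart from MEG3. Among the more abundant members it did not follow the level. MALAT1 and GAS5 were the steadiest, with a standard deviation (SD) of log2 CPM (each count as a share of its library, on a log2 scale) of 0.05 and 0.06, and MIR210HG the most variable, with 0.58. The median over all tested genes was 0.09, and 97.2% of them, taken at all levels, had a smaller SD than MIR210HG. UCA1, which was under the filter, had an SD of 0.235.

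NEAT1 (ENSG00000245532, chromosome 11, 65422774 to 65445540, plus strand, GRCh38) is the architectural RNA of paraspeckles and is made as a short and a long form, which the gene row does not separate. The DMSO libraries had 89.6, 93.4 and 98.6 FPKM of it, and the GIA libraries 93.4, 115.0 and 101.0. GIA library 2 was the highest, and the groups overlapped. The means were 93.9 ± 4.55 and 103 ± 10.9 FPKM (SD, n = 3 each). The log2 fold change was 0.13 (SE 0.06, edgeR adjusted p = 0.875), with a 95% interval of -0.01 to 0.28, and it was 0.05 without GIA library 2. The upper end of the interval is a 1.21-fold increase. MIB1, a ubiquitin ligase of Notch signalling, and the transcription factor TFAP2A lay closest to NEAT1 in pattern. The root mean square distance of their centred log2 CPM over the 6 libraries was 0.014 for each. The median over tested genes was 0.146. Here and below, such genes were picked as the nearest of all tested genes, so they lie under the median by selection.

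Of 24 paraspeckle protein genes, all of them tested, 0 were higher and 0 lower by edgeR. Of the 24, 3 had an unadjusted p under 0.05, against 4.59% of all tested genes. The log2 fold change was positive for 9 and negative for 15, with a median of -0.01, where 50.2% of all tested genes were positive. NONO, one of the core proteins that bind NEAT1, had 57.9 FPKM with DMSO and 57.8 with GIA (log2 fold change -0.0028, SE 0.03). HNRNPA1 had 0.0055 (SE 0.04) and HNRNPK -0.02 (SE 0.03), both RNA-binding proteins of many transcripts. The RNA-binding protein gene TAF15 had -0.11 (SE 0.04) and RBM12 -0.15 (SE 0.06), and for both the GIA libraries lay below the DMSO libraries. Neither passed (edgeR adjusted p = 0.875 for both). The GIA libraries lay wholly below for 2 of the 24 and wholly above for 1, against 5.6% and 5.63% of all tested genes.

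MALAT1 (ENSG00000251562, chromosome 11, 65497688 to 65506469, plus strand) lies downstream of NEAT1 and is among the most abundant nuclear RNAs of many cells. Here it had 19.2, 19.8 and 20.6 FPKM with DMSO and 19.9, 21.6 and 20.3 with GIA. The groups overlapped, and the highest value was again in GIA library 2. The log2 fold change was 0.05 (SE 0.04, interval -0.05 to 0.14), so that a change of more than 1.10-fold upwards lay outside the interval. NEAT1 was 4.88 times as high as MALAT1 per length. MALAT1 thus had the lowest FPKM of the 5 members above 5 FPKM. How fully these libraries captured each RNA was not tested, so this is no order of amounts in the cell.

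Genes of nuclear speckles and of 3′-end processing gave 0 calls among 21 tested, with 0 at an unadjusted p under 0.05 and a median log2 fold change of -0.0034. SRRM2, a structural protein of speckles, had 0.05 (SE 0.04), and the splicing factors SRSF1 and SRSF2 had -0.03 (SE 0.03) and -0.0076 (SE 0.04). For SRRM1 each GIA library lay above each DMSO library (0.11, SE 0.05), and for the splicing factor SRSF3 each lay below (-0.09, SE 0.04). Neither passed (edgeR adjusted p = 0.875 for both). That is 1 of the 21 in each direction, where 5.63% of all tested genes were separated upwards and 5.6% downwards. FRMD8, upstream of NEAT1, had 11.8 FPKM with DMSO and 11.2 with GIA and did not pass the test (log2 fold change -0.08, SE 0.05).

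GAS5 (ENSG00000234741, chromosome 1, 173858559 to 173868882, minus strand), which gathers in growth-arrested cells, had 74.7, 71.8 and 74.7 FPKM with DMSO. With GIA it had 71.1, 80.9 and 75.4 FPKM, so the GIA group held both the lowest and the highest library. The log2 fold change was 0.04 (SE 0.04, interval -0.06 to 0.14) and became -0.0081 without GIA library 2. GAS5 shares 801 bases with ZBTB37 on the other strand, which was low (0.657 FPKM), and GAS5-AS1 lies within it on that strand at 0.211 FPKM. The library kit is strand-specific per the labels, but no source used here states whether the counting used the strand.

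SNHG1 (ENSG00000255717, chromosome 11, 62851984 to 62855953, minus strand) had 44.7, 44.5 and 45.3 FPKM with DMSO and 44.6, 54.3 and 47.1 with GIA. The DMSO libraries lay close together (SD 0.431) and the GIA libraries were spread over more than 9 FPKM (SD 5.06), with GIA library 2 far above the rest. GIA over DMSO, the log2 fold change was 0.11 (SE 0.06, edgeR adjusted p = 0.875) with an interval of -0.02 to 0.25, and 0.03 without GIA library 2. In GENCODE release 29 the gene holds 7 small nucleolar RNAs, each intronic in at least 1 of its transcripts. A pair of them is shown to make plain what the host carries. The capitals mark the C box (TGATGA) near the 5′ end and the D box (CTGA) near the 3′ end, by which such RNAs are recognised. Both come from the GENCODE transcripts of GRCh38 and lie on the minus strand.
SNORD27, chr11:62855012-62855083: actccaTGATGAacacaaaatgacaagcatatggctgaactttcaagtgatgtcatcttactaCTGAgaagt
SNORD30, chr11:62853663-62853732: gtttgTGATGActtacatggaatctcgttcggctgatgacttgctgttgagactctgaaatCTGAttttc
The table has 7 rows of small nucleolar RNAs within SNHG1, and none of them held more than 2 estimated counts in a library. The levels of the host therefore say nothing of the small RNAs, which these libraries hardly hold.

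Among 33 named hosts of small nucleolar RNAs, 29 were tested, and 0 were higher and 0 lower by edgeR. Of the 29, 14 had a positive and 15 a negative log2 fold change, with a median of -0.01. Against 4.59% of all tested genes, 2 of the 29 had an unadjusted p under 0.05. These were SNHG3, with 0.22 (SE 0.08), and SNHG4, with 0.13 (SE 0.06). SNHG4 had 10.1, 11.2 and 10.5 FPKM with DMSO and 11.3, 12.5 and 11.2 with GIA, while for SNHG3 the groups overlapped. Before rounding, SNHG4 was the 1 of the 29 with each GIA library above each DMSO library, as for 5.63% of all tested genes. The protein-coding host RACK1, a ribosomal protein, had 0.01 (SE 0.03), and SNHG32 had -0.06 (SE 0.05). Of 19 nonsense-mediated decay factors, 0 passed, 3 were positive and 16 negative, where 50.2% of all tested genes were positive. Their median log2 fold change was -0.04. Dropping GIA library 1 moved that median to -0.07, dropping GIA library 3 to -0.06 and dropping GIA library 2 to -0.03. The 1 factor with an unadjusted p under 0.05 went the other way: SMG9 had 3.66, 3.77 and 3.55 FPKM with DMSO and 4.07, 4.05 and 3.95 with GIA (0.13, SE 0.05, edgeR adjusted p = 0.875). Each GIA library lay above each DMSO library for 1 of the 19 and below for 2, against 5.63% and 5.6% of all tested genes. The release factor genes ETF1 and GSPT1 had -0.03 (SE 0.04) and -0.03 (SE 0.03), SMG5 had -0.07 (SE 0.05), and the helicase DHX34 had -0.15 (SE 0.07). The mean of the decay factors lay lowest in GIA library 2, at -0.08 on the centred log2 scale, where each other library had -0.0080 to 0.04.

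**Figure D2:**
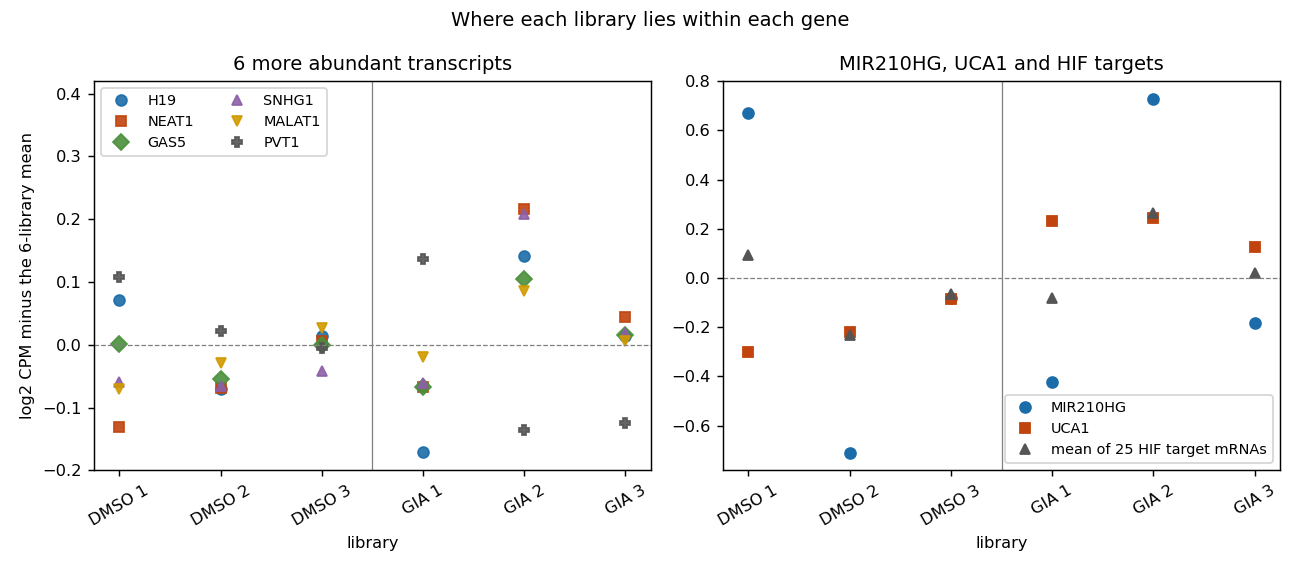
Log2 CPM of each gene minus its mean over the 6 libraries, by library, for 6 of the more abundant transcripts (left) and for MIR210HG, UCA1 and the mean of 25 HIF target mRNAs (right). The vertical line parts DMSO from GIA libraries. In GIA library 2, H19, NEAT1, GAS5, SNHG1 and MALAT1 reach their highest values while PVT1 lies at -0.14, and MIR210HG spans -0.71 to 0.73.

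GIA library 2 held the highest value for 6 of the 7 tested members, all but PVT1, and for none the lowest. Among all tested genes it held the highest for 29.6% and the lowest for 23.9%. In the count that includes UCA1 it was highest for 7 of 8. Without GIA library 2 the median log2 fold change of the 7 was -0.0081, against 0.05 with it. Dropping DMSO library 2 gave 0.02, and dropping GIA library 1 gave 0.08. The 4 fibroblast markers with a row summed to 17.6 to 18.9 FPKM with DMSO and 17.7 to 24.6 with GIA, highest in GIA library 2, with COL3A1 at or near 0 throughout. The part of these markers in the values of GIA library 2 was not tested.

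H19 (ENSG00000130600, chromosome 11, 1995176 to 2001470, minus strand) is an imprinted, oncofetal RNA that is made from the maternal copy. With DMSO it had 284, 257 and 273 FPKM and with GIA 239, 301 and 273. The GIA group enclosed the DMSO group, with means of 272 ± 13.7 and 271 ± 30.8 FPKM (SD, n = 3 each). GIA over DMSO, the log2 fold change was -0.0060 (SE 0.07), with an interval of -0.17 to 0.15. The sign changed without DMSO library 1 (0.03) and without GIA library 1 (0.07). H19 carries miR-675, whose precursor lies in an exon in 4 of the 5 GENCODE transcripts that span it. The mature sequences, from RefSeq on GRCh38.p14, are printed with the seed (bases 2 to 8) in capitals, since the seed decides which targets are paired.
hsa-miR-675-5p: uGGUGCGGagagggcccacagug
hsa-miR-675-3p: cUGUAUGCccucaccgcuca
The row of the precursor held 1 estimated count in each library.

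The paternally expressed neighbour IGF2, which shares enhancers with H19, had at most 0.0416 FPKM. Of 29 imprinted genes named, 21 had a row and 14 were tested. None passed by edgeR, with 0 at an unadjusted p under 0.05, and the median log2 fold change was 0.01. PHLDA2, a growth-limiting gene of the placenta, had 53.5 FPKM with DMSO and 53.2 with GIA (log2 fold change -0.01, SE 0.13). GNAS, which encodes a stimulatory G protein subunit, had 0.04 (SE 0.03), and the adaptor GRB10 had 0.06 (SE 0.04).

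MEG3 (ENSG00000214548, chromosome 14, 100779410 to 100861031, plus strand), an imprinted RNA that is silenced in many cancers, was not detectable at this depth in 4 libraries. It had 0 counts in every DMSO library and in GIA library 3, and 4 in each of GIA libraries 1 and 2. A count of 0 allows up to 3 fragments, or 12 estimated counts if 1 fragment is worth 4. Both groups lie under that limit, and no fold change is given.

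MIR210HG (ENSG00000247095, chromosome 11, 565660 to 568457, minus strand) was the member with the widest spread. It had 1.39, 0.522 and 0.816 FPKM with DMSO and 0.635, 1.46 and 0.748 with GIA. Each group held 1 high library, DMSO library 1 and GIA library 2, and the groups overlapped over nearly their whole range. The means were 0.908 ± 0.440 and 0.947 ± 0.447 FPKM (SD, n = 3 each). The log2 fold change was 0.06 (SE 0.40, interval -0.84 to 0.96), which reaches 1.95-fold, and the counts were 76 to 252. It changed sign without DMSO library 2 (-0.21), DMSO library 3 (-0.0082) or GIA library 2 (-0.37). The microRNA that it hosts lies in an intron of all 4 GENCODE transcripts. Its mature sequences, from RefSeq on GRCh38.p14 with the seed in capitals, are the following.
hsa-miR-210-3p: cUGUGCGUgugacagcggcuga
hsa-miR-210-5p: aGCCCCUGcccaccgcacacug
The 4 mature sequences of miR-210 and miR-675 have 4 different seeds.

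HIF binds DNA at a core of ACGTG or GCGTG. Of the members, 6 had a promoter entry in RefSeq (a window that spans the start of the gene). ACGTG, searched on both strands as ACGTG or CACGT, was in the window of MIR210HG and of none of the other 5, and 21.4% of the 35116 promoter windows hold it. GCGTG, searched with CACGC on the other strand, is in 36.5% of them, and in those of MIR210HG, SNHG1, MALAT1 and MEG3 (in only some of the alternative starts of MEG3). The MIR210HG window is printed because its transcript belongs to the hypoxia response, with ACGTG in capitals, 170 bases before the start. These letters are a match and not a measured binding site.
MIR210HG promoter, chr11:568408-568707, minus strand: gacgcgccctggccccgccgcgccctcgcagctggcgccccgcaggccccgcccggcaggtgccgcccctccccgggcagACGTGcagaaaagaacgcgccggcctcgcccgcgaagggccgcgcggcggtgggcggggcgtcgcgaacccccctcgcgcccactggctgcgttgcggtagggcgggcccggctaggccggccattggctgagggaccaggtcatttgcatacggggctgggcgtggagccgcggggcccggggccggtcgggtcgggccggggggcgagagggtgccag

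The libraries ranked for MIR210HG much as for the mRNAs that HIF induces. Over 25 HIF target mRNAs the mean centred log2 CPM was 0.09, -0.23 and -0.06 with DMSO and -0.08, 0.27 and 0.02 with GIA. For MIR210HG the same quantity was 0.67, -0.71 and -0.08, and -0.42, 0.73 and -0.18. In both, GIA library 2 and DMSO library 1 were the highest, and DMSO library 2 and GIA library 1 the lowest. CA9, the hypoxia-induced carbonic anhydrase, had 18.1, 4.17 and 9.23 FPKM with DMSO and 9.50, 32.8 and 15.3 with GIA. Its high and low libraries within each group were the same. For the 29 tested hosts of small nucleolar RNAs the mean was likewise high in GIA library 2 (0.04) and DMSO library 1 (0.03). It was low in DMSO library 2 (-0.02) and GIA library 1 (-0.075). Paraspeckle proteins and decay factors had their lowest mean in GIA library 2. Whether the ranking is particular to HIF targets was not tested. Closest to MIR210HG in pattern were C4A, a complement gene with a near-identical copy (distance 0.228, where the median was 0.542), and CPNE8-AS1 (0.234). Of the 25 HIF targets 0 passed by edgeR. Their log2 fold change was positive for 19 and negative for 6, where 50.2% of all tested genes were positive. The 1 with an unadjusted p under 0.05 was VEGFA, with 0.15 (SE 0.05, edgeR adjusted p = 0.875). It was also the 1 of the 25 with each GIA library above each DMSO library, as for 5.63% of all tested genes. The median log2 fold change of the 25 was 0.10. Leaving out 1 library gave 0.0097 (GIA library 2), 0.05 (DMSO library 2), 0.1394 (DMSO library 1) or 0.1475 (GIA library 1). The flanking genes were steadier, with 6.92 to 8.19 FPKM for RASSF7 (log2 fold change -0.08, SE 0.09) and 8.77 to 9.59 for PHRF1 (0.01, SE 0.05).

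PVT1 (ENSG00000249859, chromosome 8, 127794526 to 128187101, plus strand), which is often gained together with MYC in tumours, had 1.62, 1.52 and 1.49 FPKM with DMSO. With GIA it had 1.64, 1.38 and 1.37 FPKM, with GIA library 1 the highest of the 6 and the other two the lowest. The log2 fold change was -0.08 (SE 0.08, interval -0.25 to 0.10), -0.17 without GIA library 1 and -0.03 without GIA library 2. MYC, 53.1 kb upstream, had 94.7 ± 1.92 and 96.2 ± 1.42 FPKM (SD, n = 3 each) and a log2 fold change of 0.02 (SE 0.03). The genes closest to PVT1 in pattern were ZCCHC4 (distance 0.016, where the median was 0.135), which modifies ribosomal RNA, and BRMS1 (0.024).

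CCAT1, which RefSeq places on chromosome 8 at 127207382 to 127219268 of GRCh38.p14, lies within the span of the CASC19 row (127072694 to 127224477, minus strand). Whether fragments of CCAT1 were counted in that row was not tested. CASC19 had 11.8, 12.3 and 11.7 FPKM with DMSO and 12.4, 13.7 and 12.4 with GIA. Each GIA library was above each DMSO library, as for 5.63% of all tested genes, and the log2 fold change was 0.10 (SE 0.04, edgeR adjusted p = 0.875) with an interval of 0.0037 to 0.20.

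UCA1 (ENSG00000214049, chromosome 19, 15828206 to 15836327, plus strand), an RNA first described in bladder cancer and linked to HIF, was the 1 member whose groups did not overlap. It had 0.231, 0.242 and 0.269 FPKM with DMSO and 0.346, 0.353 and 0.321 with GIA, or 61, 66 and 81 and 108, 111 and 96 estimated counts. Its mean was under the filter of 0.5 FPKM, so it was tested in a fit of all 30676 rows. In that fit the log2 fold change was 0.41 (SE 0.19, interval -0.04 to 0.86, edgeR adjusted p = 0.751), and 0.0% of the rows were called in either direction, while in 4.65% of them each GIA library was above each DMSO library. Without any 1 library it was 0.36 to 0.47. It was 0.17 by limma on log2 (FPKM + 0.5), a scale that understates changes of low genes. There its unadjusted p was 0.0425 and the adjusted p from limma 0.844. It was 0.44 with counts divided by 4. These alternatives were chosen after seeing the data. Over all 6 of them and the 6 fits with 1 library left out, the adjusted p was 0.740 to 0.998. Of the 4842 rows with a mean of 0.1 to under 0.5 FPKM, 6.03% had all GIA libraries above all DMSO libraries. Rows that overlap it on the minus strand had at most 0.00621 FPKM on average.

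**Figure D3:**
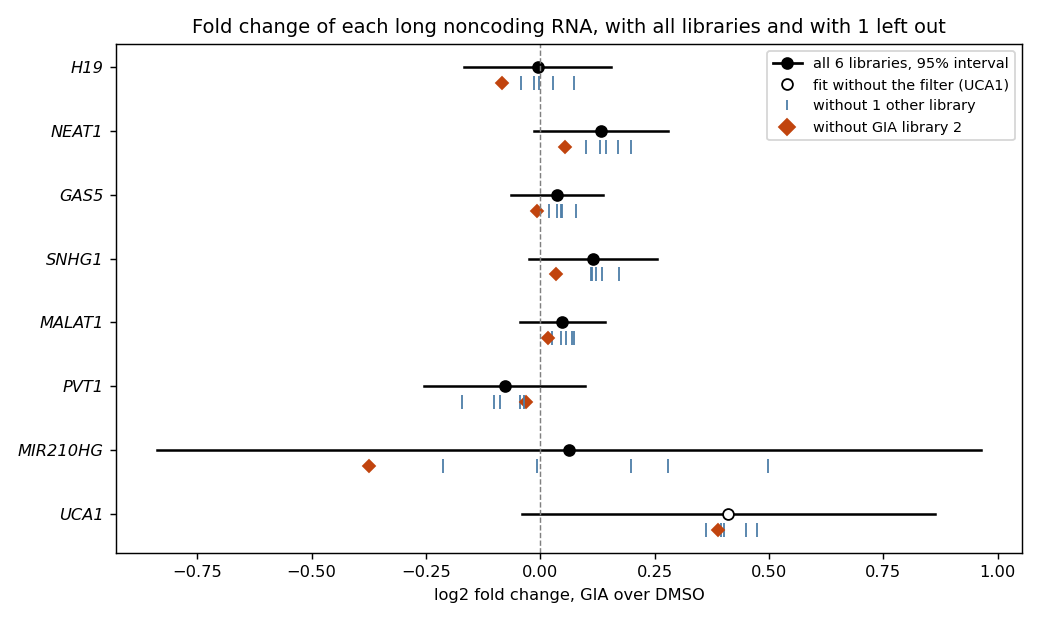
Log2 fold change (GIA over DMSO) of 8 long noncoding RNAs with all libraries (black points with 95% intervals; open for UCA1, fitted without the filter) and with 1 library left out (blue bars, orange diamonds for GIA library 2). Every interval includes 0, and leaving out GIA library 2 moves NEAT1 to 0.05 and MIR210HG to -0.37.

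Of 54 other long or structural noncoding RNAs named for colorectal cancer or hypoxia, 43 had a row and 24 were tested. None was called by edgeR in either direction. Positive values numbered 17 and negative values 7, where 50.2% of all tested genes were positive. Of the 24, 3 had an unadjusted p under 0.05, against 4.59% of all tested genes. The median log2 fold change was 0.09. Dropping 1 library brought this median down to 0.052 (GIA library 2), 0.0572 (GIA library 3), 0.0588 (DMSO library 1) or 0.068 (DMSO library 3). It rose to 0.1151 without GIA library 1 and to 0.0983 without DMSO library 2. The most abundant were NORAD, which binds Pumilio proteins (0.03, SE 0.05), TUG1 (0.04, SE 0.04) and CASC19. ZEB1-AS1, the antisense partner at the start of ZEB1, had 1.30, 1.06 and 1.14 FPKM with DMSO and 1.58, 1.88 and 1.46 with GIA. Its groups did not overlap, and the log2 fold change was 0.48 (SE 0.14, edgeR adjusted p = 0.875), with an interval of 0.15 to 0.81. Such separation upwards held for 2 of the 24 and downwards for 0, against 5.63% and 5.6% of all tested genes. The mean of this list was 0.17 in GIA library 2 on the centred log2 scale and -0.09 to 0.05 in the others.

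**Figure D4:**
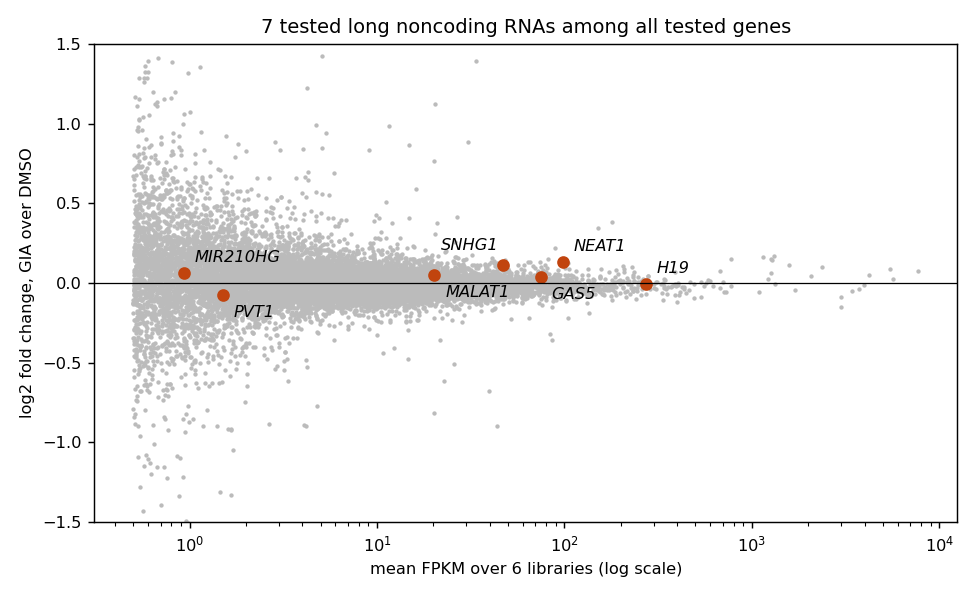
Log2 fold change (GIA over DMSO) against mean FPKM over the 6 libraries (log axis) for the tested genes (grey), with the 7 tested long noncoding RNAs in orange. The 7 lie between -0.08 and 0.13; 26 genes beyond 1.5 either way are outside the axis.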

How the data were processed

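RNA-seq of 6 libraries, 3 per group, was analysed from a table of genes deposited by the authors. It holds an estimated count and an FPKM value per library, per the file headers. Per the submitters' processing notes, the tools were HISAT2 2.2.1, StringTie 2.1.6, cutadapt, FastQC 0.10.1 and DESeq2 1.22.2, named with no role or order, and the build was GRCh38. No source used here gives the annotation release. Estimated counts are whole numbers in which 1 fragment may be worth about 4, so counting error is larger than the counts imply.

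Columns were matched to libraries by their numbered titles. Genes with a mean of at least 0.5 FPKM (13721) were tested with edgeR 4.0.16 in R 4.3.3 (quasi-likelihood, two-sided, TMM scaling, no covariate), adjusted over all of them (Benjamini-Hochberg, threshold 0.05). Fold changes are log2, GIA over DMSO; standard errors come from the F statistic. Centred values are log2 CPM with a prior count of 2. Alternatives used DESeq2 1.42.0, limma 3.58.1 (log2 FPKM plus 0.1, 0.5 or 1), other scalings, filters, a replicate block and left-out libraries. The tests were also tried on simulated counts, with larger changes than those of the members, and no result here rests on that trial. In each list the 3 most abundant genes and the 2 of smallest p were eligible to be named, with neighbours, overlapping genes and the 2 genes nearest in pattern for the 3 most variable of the 7 tested members. The members and lists were chosen with earlier results of these data known.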

Additional observations from a re-analysis of the deposited data

How the results depend on the processing

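With all 6 libraries edgeR called 0 genes, as it did with other scaling, filters and counts divided by 4. DESeq2 and limma on the same genes also called 0, and DESeq2 on all rows called 3. Leaving out 1 library gave 0 to 5 called genes (the 5 without GIA library 3). Genes that reached the unadjusted threshold numbered 1407 when GIA library 1 was dropped, 3 members among them, and 406 when DMSO library 2 was dropped. With the replicate number as a replicate block 3 genes were called. In that fit NEAT1 had an unadjusted edgeR p of 0.0378 and an adjusted p of 0.947. The labels do not state pairs, so the main fit did not take the numbers as pairs. Deviations of same-numbered libraries had weak positive correlations (0.0519, 0.0334 and 0.0966), and those of differently numbered libraries -0.086 to 0.0349. Each GIA library correlated best with its own number, as did DMSO libraries 1 and 3. DMSO library 2 did not (0.0334 against 0.0349). Pairing by number was therefore not settled. No member was called in any of the 122 fits of a member under an alternative, and the smallest adjusted p was 0.469.

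H19 changed sign with a mean FPKM of at least 5 (0.0038). Without 1 library the log2 fold change was -0.0832 to 0.073 for H19, -0.0081 to 0.0784 for GAS5, -0.37 to 0.50 for MIR210HG, 0.05 to 0.20 for NEAT1, 0.03 to 0.17 for SNHG1, 0.02 to 0.07 for MALAT1 and -0.17 to -0.03 for PVT1. The median over the 7 tested members was -0.0081 to 0.08. Over the lists it was -0.0483 to 0.0078 for speckle factors and -0.0276 to -0.0008 for small nucleolar RNA hosts. Paraspeckle proteins had -0.0152 to -0.0051, imprinted genes 0.0111 to 0.0358 and decay factors -0.0678 to -0.0322. For HIF targets it was 0.0097 to 0.1475, and for the other colorectal cancer and hypoxia RNAs 0.052 to 0.1151. The cause of these shifts was not tested. UCA1 had 61 to 111 estimated counts, and depth sets the limit for MEG3.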

Other observations

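A few rows inside or against the members, chosen after their values were seen, held counts in 1 group more than in the other at very low depth. GAS5-AS1, antisense to GAS5, had 0, 0 and 18 estimated counts with DMSO and 14, 22 and 22 with GIA. The precursor of miR-210 had 1, 0 and 1 with DMSO and 5, 6 and 2 with GIA, while its host MIR210HG had 197, 76 and 133 and 111, 252 and 126. The counts of the precursor are under the limit of 12 that a count of 0 allows, and mRNA libraries are not made to measure such short RNAs. Neither row passed the filter on low values. They were picked from all rows that overlap a member. Both had a mean of 0.1 to under 0.5 FPKM, where 6.03% of rows had all GIA libraries above all DMSO libraries. That held for the precursor of miR-210 and not for GAS5-AS1.

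Of the epithelial markers, EPCAM, CDH1 and VIL1 were at or near 0 in the DMSO and the GIA libraries alike, as given in the opening. KRT8, KRT18, KRT19 and CLDN7 were expressed, and CLDN4 was low. KRT19, a keratin of simple epithelia, had 26.2 to 29.9 FPKM, CLDN7 10.2 to 14.9 and CLDN4 0.818 to 1.02. The leukocyte gene PTPRC had at most 0.0162 FPKM and the endothelial genes VWF and CDH5 at most 0.0110 and 0.0268. CD68, a lysosomal protein also used as a macrophage marker, had 17.0 to 24.6.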
